A study of Mus musculus with 9 samples.

Results

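The autophagy machinery genes described here are 37 genes of initiation, conjugation and cargo reception, chosen by name and found by symbol in a table of raw RNA sequencing counts with 24062 genes. All 37 passed the filter on low counts, which left 15369 genes for testing. The cells were mouse embryonic fibroblasts of the C57BL/6 strain, cultured cells grown out of embryos, and all of them had been made senescent with gamma rays. Per the labels' protocols, lentivirus carrying a short hairpin RNA was added 10 days after irradiation. The groups, of 3 samples each and 9 in all, are shRela-1 and shRela-2, which carried independent hairpins against Rela, and shScr, which carried a scrambled control hairpin. Rela encodes p65, the subunit of the transcription factor NF-kB that activates many inflammatory genes of senescent cells. Every group was irradiated, so no unirradiated cell and no cell without virus enters any comparison, and the sources used here give neither the time from infection to harvest, nor the hairpin sequences, nor whether replicates were separate cultures. The p-values thus reflect the spread among these 9 libraries alone, and that spread may be technical. In the titles, a dataset tag follows shScr names and no others, so any batch behind that tag cannot be told apart from the group.

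Autophagy encloses cytoplasm in a double membrane, the autophagosome, and delivers it to lysosomes for breakdown. The ULK1 kinase complex starts the process, a class III phosphatidylinositol 3-kinase marks the membrane with the lipid PI3P, ATG9 and ATG2 proteins supply lipid, and enzymes related to those of ubiquitin attach ATG8 proteins (the LC3 and GABARAP proteins) to the growing membrane. Receptors then tie cargo to ATG8. In senescent cells autophagy is known to recycle amino acids that are used to make secreted proteins. Messenger RNA levels, which are what was measured here, do not give the rate of autophagy.

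Both hairpins lowered their target to a like degree. As a percentage of its mean in shScr, Rela stood at 16.0 ± 0.572 with shRela-1 and at 16.3 ± 0.902 with shRela-2 (SD, n = 3 each), and the log2 changes were -2.64 ± 0.050 and -2.62 ± 0.050 (edgeR adjusted p = 8.7e-10 and 1.2e-09). Total counts ran from 62460501 to 64445863 with shRela-1, from 51071566 to 61056637 with shRela-2 and from 49774667 to 67963506 with shScr, and the count of a member in a sample ran from 313 (Atg10) to 19527 (Gabarap). Within shScr, pairs of libraries that include replicate 2 differed more (chi-square per degree of freedom of 112 and 109) than the other pair (20.1). Summed fibroblast markers (10 of 10 measured) were between 38854 and 39066 CPM with shRela-1, between 34257 and 34894 CPM with shRela-2 and between 34348 and 36960 CPM with shScr, where CPM is the counts scaled to a common library total after TMM. Of these 10 genes, 3 rose and 1 fell with shRela-1, and Vim alone was called with shRela-2, lower (-0.39 ± 0.039, edgeR adjusted p = 5.5e-05). Of all genes tested, 24.7% were called with shRela-1 and 30.9% with shRela-2. Summed macrophage and blood markers (9 of 9 measured) were between 113 and 168 CPM with shRela-1, between 92.0 and 149 CPM with shRela-2 and between 107 and 168 CPM with shScr, highest in replicate 2 of each group, and of the 9 only Itgam was called, lower with shRela-2 (-0.54 ± 0.147, edgeR adjusted p = 0.017), a call lost on leaving out shRela-2 replicate 1 or 3 or shScr replicate 2 (adjusted p from 0.060 to 0.063). Summed neural markers were between 59.0 and 63.7 CPM with shRela-1, between 124 and 135 CPM with shRela-2 and between 88.9 and 89.4 CPM with shScr, and Tubb3 was the member of that list that moved (-0.55 and 0.56). Summed endothelial markers were at most 6.71 CPM and summed epithelial markers at most 20.2 CPM in any sample, none of their members was called against shScr, and Krt14 and Olig2 were at 0 in several samples. The part of these shifts in the results below was not tested. In bulk samples such as these, fewer cells that express a gene and less RNA of it per cell cannot be told apart.

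The 37 genes moved differently with the 2 hairpins, as did genes at large. The log2 change had the same sign with both hairpins in 20 of 37 members (54.1%), near the 55.4% of all genes tested. With shRela-1, 15 of 37 members passed edgeR's quasi-likelihood test at an adjusted p under 0.05, of which 7 were higher and 8 lower than with shScr, and the median log2 change of the members was 0.02. The same test called 24.7% of all genes tested (12.3% higher and 12.4% lower), with a median of 0.00. With shRela-2, 25 of 37 members passed, 20 of them higher and 5 lower, and the median was 0.14. In that comparison 30.9% of all genes were called (15.4% higher and 15.4% lower), again with a median of 0.00. Set directly against each other, 28 members differed between the hairpins, of which 21 were higher and 7 lower with shRela-2 than with shRela-1, with a median of 0.16, where 39.9% of all genes were called (20% higher and 19.9% lower). The changes were mostly small. The median absolute log2 change of the members was 0.11 with shRela-1, 0.23 with shRela-2 and 0.27 between the hairpins. Over all genes it was 0.16, 0.18 and 0.22. No member had a count under 313 in a sample, whereas the filter used a minimum count of 10, and a small change passes more readily at a high count. The part of this in the shares called was not tested. Of the members, 32 were called in at least 1 of these 3 comparisons (86.5%, against 51.5% of all genes), yet 4 (10.8%) were called with a change beyond 1.5-fold, against 14% of all genes, and 1 of these, Atg101, changed beyond 2-fold. The comparisons with shScr share the 3 control samples. The fit behind these calls does not pair samples by the replicate number of their titles. With that number as a block, 20 members were called with shRela-1, 27 with shRela-2 and 30 between the hairpins. Of all genes, that fit called 39.3%, 44.4% and 51.9%. Per sample, the members took 0.248 to 0.258% of all counts with shRela-1, 0.267 to 0.285% with shRela-2 and 0.245 to 0.259% with shScr.

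**Figure D1:**
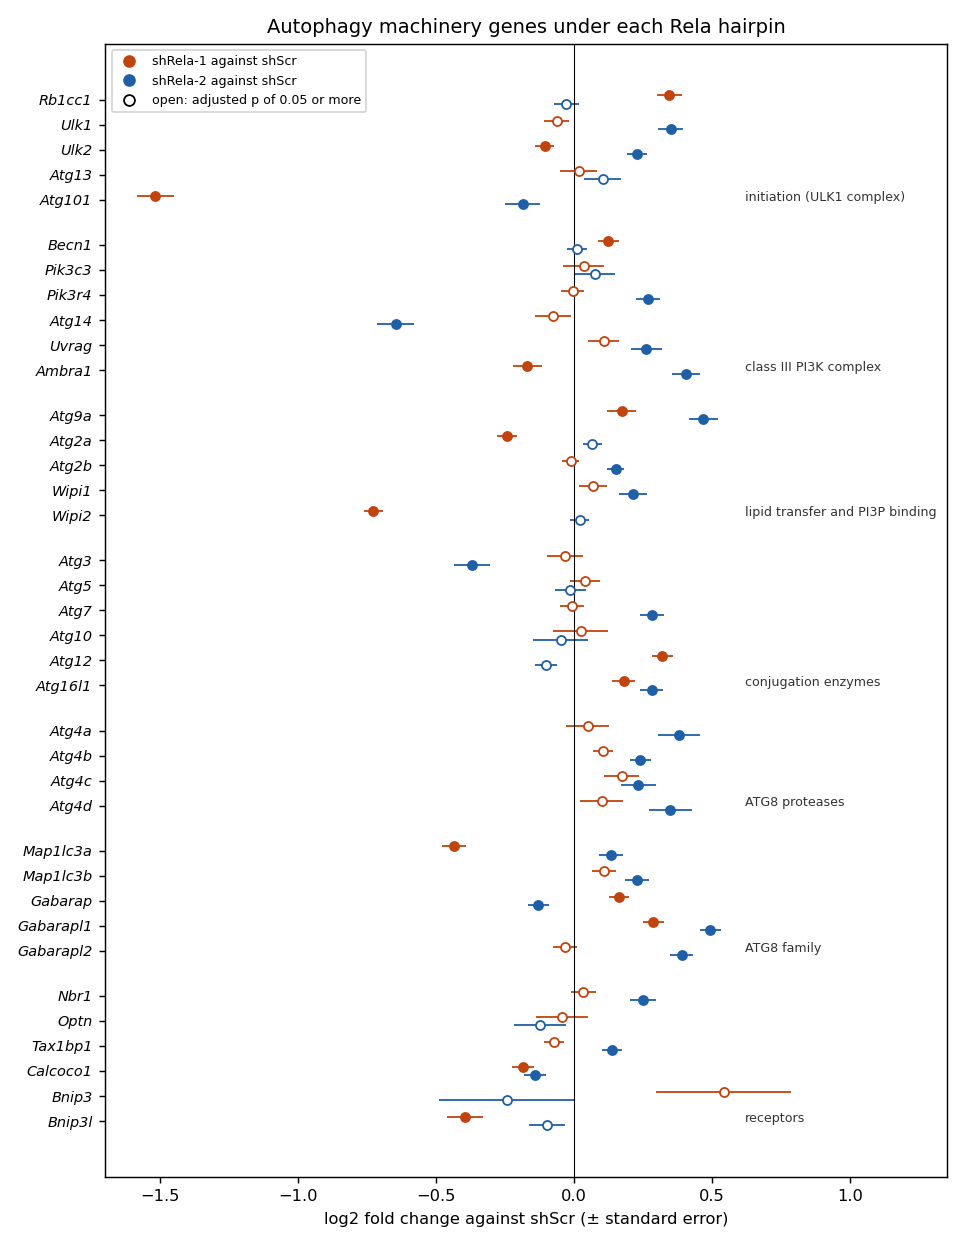
Log2 fold change against shScr of each of the 37 members with shRela-1 and with shRela-2, grouped by role; points are edgeR estimates, bars standard errors, and open points had an adjusted p of 0.05 or more. Atg101 and Wipi2 lie far to the left with shRela-1, Atg14 with shRela-2, and most of the shRela-2 points lie to the right of 0.

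By calls against shScr, Atg9a, Atg16l1 and Gabarapl1 were called higher with both, and Atg101 and Calcoco1 lower with both. Ambra1, Map1lc3a and Ulk2 were lower with shRela-1 and higher with shRela-2, and Gabarap was higher with shRela-1 and lower with shRela-2. A further 14 members were called higher with shRela-2 and not called with shRela-1, and Atg10, Atg13, Atg5, Bnip3, Optn and Pik3c3 were called with neither. Over all genes tested, 4.12% were called higher with both, 2.84% lower with both, 5.08% in opposite directions, 8.69% higher with shRela-2 and not called with shRela-1, and 56.5% with neither. Both comparisons use the same controls and a missed call is not a missing change, so these patterns are a description only. They also move with the replicate block, under which Uvrag, Atg4b, Atg4c and Map1lc3b joined those called higher with both, 7 in all (7.51% of all genes), Bnip3 and Atg12 joined those called in opposite directions, 6 in all (9.95% of all genes), and 10 members remained higher with shRela-2 and not called with shRela-1 (10.2% of all genes). Per length, as CPM per kilobase of annotated exon averaged over the 9 samples, Gabarap stood highest (204), ahead of Gabarapl1 (75.3), Bnip3 (62.8), Map1lc3a (56.6) and Tax1bp1 (49.7), and Atg4d stood lowest (1.52). These lengths count every annotated exon, so a gene with long exons that these cells do not use is placed too low.

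Words in the 3′ untranslated regions are shown for Atg101 and Wipi2, which fell most with shRela-1, and Atg14, which fell most with shRela-2. Gabarapl2, which was not called with shRela-1, is shown beside them. All 7-letter words found in at least 100 genes were ranked, on the transcribed strand only, in 13872 genes with an annotated 3′ UTR. The longest annotated 3′ UTR of each gene was used, whether or not these cells make that transcript. The rank uses the mean log2 change of genes whose 3′ UTR holds the word less that of the other genes. This difference was divided by its standard error, so the number of genes that hold a word also weighs in the rank. With shRela-1 the lowest word was AGGTGTA, present in 1121 genes (8.08%), whose median log2 change was -0.16, against 0.01 in genes without it. The next, GGTGTAA, was in 848 genes (6.11%), with a median of -0.19, and in 1 of 37 members, Wipi2. The third lowest, GAGGTGT, overlaps AGGTGTA by 6 letters and was in 1381 genes (9.96%), with a median of -0.09. That is nearer to 0 than the medians of AGGTGTA and GGTGTAA, and its site is shown because Atg101 holds it. With shRela-2 the lowest was GAAGCTA, in 1235 genes (8.9%), with a median of -0.17 against 0.01. After it came TGAAGCT, in 1973 genes (14.2%), with a median of -0.11. The third lowest, AGAAGCT, was in 2168 genes (15.6%), with a median of -0.07. These words were picked on the data they describe, so their medians carry no test. AGGTGTA is in the 3′ UTR of 3 of 37 members (8.11%: Wipi2, Gabarapl2 and Map1lc3b) and GAGGTGT in that of 5 (13.5%: Atg101, Ambra1, Ulk1, Wipi2 and Atg4d). GAAGCTA is in that of 3 (8.11%: Atg14, Atg12 and Bnip3). TGAAGCT is in that of 6 (16.2%: Atg14, Bnip3l, Atg12, Ulk1, Uvrag and Map1lc3b). AGAAGCT is in that of 9 (24.3%: Bnip3l, Atg101, Calcoco1, Pik3c3, Atg12, Atg7, Bnip3, Map1lc3b and Atg4d). Among these holders, Atg14, Atg101 and Calcoco1 were called lower with shRela-2, and Ulk1, Uvrag, Map1lc3b, Atg7 and Atg4d higher. For AGGTGTA and GAAGCTA these shares are near those of all genes. Map1lc3a and Bnip3l, which also fell with shRela-1, hold none of the words given for that hairpin. Atg3 and Gabarap, which fell with shRela-2, hold none of those given for shRela-2. The sites below are from GRCm38, which is mm10, read 5′ to 3′ on the gene's strand, with the word in capitals. They lie at chr15:101290916-101290944 (plus strand, Atg101), chr5:142667810-142667838 (plus, Wipi2), chr14:47542729-47542757 (minus, Atg14) and chr8:111953094-111953122 (plus, Gabarapl2, which has another AGGTGTA further on).
Atg101: tgaataaagttGAGGTGTgagtttgtctc
Wipi2: aaaaagcacaaAGGTGTAagatgctaggt
Atg14: gatagagcttgGAAGCTAtcgccaggaca
Gabarapl2: ggactgtaaaaAGGTGTAtactgcaaagt
A word did not go with a fall in every holder: with shRela-1 the log2 change was -0.03 ± 0.042 for Gabarapl2 and 0.11 ± 0.044 for Map1lc3b, neither of them called. The AGGTGTA of Map1lc3b, at chr8:121592796-121592802, lies well inside the annotated gene, which ends at 121598760. Whether these cells make the transcript with that 3′ UTR was not tested, so Map1lc3b may not hold the word in them. The part of these words in any change was not tested.

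In the initiation complex, Atg101 fell to 0.349 times the shScr level with shRela-1, while the kinase genes rose with shRela-2. ATG101 pairs with ATG13 to hold the complex together, and its gene, on chromosome 15, had 6.89, 7.22 and 6.80 CPM with shRela-1, 16.6, 18.1 and 17.98 CPM with shRela-2, against 20.9, 19.2 and 19.8 CPM with shScr. All 3 shRela-1 samples lie far under all others, and the shRela-2 samples lie just under the shScr samples. The log2 change was -1.52 ± 0.066 (edgeR adjusted p = 1.5e-07) with shRela-1 and -0.19 ± 0.063 (edgeR adjusted p = 0.047) with shRela-2. The smaller call was lost on leaving out shRela-1 replicate 1, shRela-2 replicates 1, 2 or 3 or shScr replicates 1 or 3 (edgeR adjusted p from 0.055 to 0.16) and under 4 other settings. Rb1cc1, which encodes the scaffold FIP200 of the complex and was its most abundant transcript by CPM, had 149.8, 144 and 151 CPM with shRela-1, 116, 112 and 116 CPM with shRela-2, against 113, 124 and 113 CPM with shScr. It was higher with shRela-1 than in every other sample (0.34 ± 0.045, edgeR adjusted p = 3.3e-04) and overlapped shScr with shRela-2 (-0.03 ± 0.045). Rb1cc1 shares 313 exonic bases with a gene model on the opposite strand, and the library kit does not mark strand. Ulk1, the kinase gene, had 64.2, 58.9 and 59.3 CPM with shRela-1, 80.2, 81.1 and 81.8 CPM with shRela-2, against 67.1, 60.9 and 62.8 CPM with shScr. Its shRela-2 samples stand above all others (0.35 ± 0.045, edgeR adjusted p = 2.6e-04), and those of shRela-1 overlap shScr (-0.06 ± 0.045). Ulk2, the gene of the related kinase, had 64.5, 67.0 and 69.2 CPM with shRela-1, 85.7, 83.4 and 84.2 CPM with shRela-2, against 72.5, 73.3 and 70.5 CPM with shScr. The 3 groups do not overlap, with a log2 change of 0.23 ± 0.035 (edgeR adjusted p = 7.4e-04) with shRela-2 and of -0.11 ± 0.035 (edgeR adjusted p = 0.047) with shRela-1. The call with shRela-1 was lost on leaving out shRela-1 replicates 1 or 2, shRela-2 replicates 1, 2 or 3 or shScr replicates 1, 2 or 3 (edgeR adjusted p from 0.061 to 0.17) and under 6 other settings. Atg13, the partner of ATG101, passed in neither comparison (0.02 ± 0.068 with shRela-1 and 0.10 ± 0.068 with shRela-2).

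**Figure D2:**
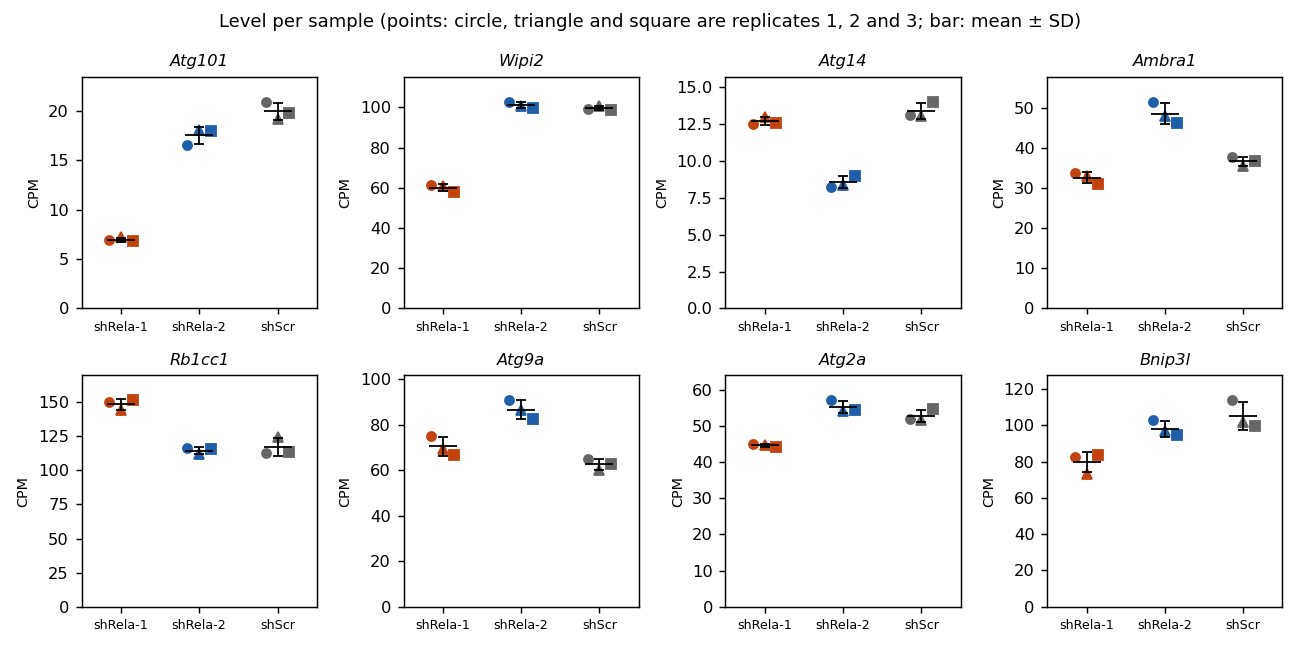
CPM in each sample for 8 members, with the groups shRela-1, shRela-2 and shScr from left to right; circle, triangle and square are replicates 1, 2 and 3, and bars give the mean ± SD. Atg101 and Wipi2 are lowest in the 3 shRela-1 samples, Atg14 in the 3 shRela-2 samples, and Ambra1 is below shScr with shRela-1 and above it with shRela-2.

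Among the 6 genes of the class III phosphatidylinositol 3-kinase and its partners, Atg14 fell with shRela-2 while Pik3r4, Uvrag and Ambra1 rose. ATG14 directs the kinase to the site of autophagosome formation, and Atg14 had 12.5, 13.0 and 12.6 CPM with shRela-1, 8.26, 8.38 and 9.01 CPM with shRela-2, against 13.1, 13.0 and 14.004 CPM with shScr. The shRela-2 samples lie under all others, by a log2 change of -0.65 ± 0.066 (edgeR adjusted p = 5.5e-05), or 0.639 times the shScr level. With shRela-1 the change was -0.08 ± 0.065 and was not called. Ambra1, whose protein scaffolds Beclin 1 and ubiquitin ligases, had 33.7, 32.9 and 31.0 CPM with shRela-1, 51.4, 48.0 and 46.1 CPM with shRela-2, against 37.7, 35.6 and 36.6 CPM with shScr. The groups do not overlap, and Ambra1 was higher with shRela-2 (0.40 ± 0.051, edgeR adjusted p = 2.1e-04) and lower with shRela-1 (-0.17 ± 0.051, edgeR adjusted p = 0.035). The call with shRela-1 was lost on leaving out shRela-1 replicates 2 or 3, shRela-2 replicate 2 or shScr replicates 1 or 3 (edgeR adjusted p from 0.051 to 0.13). Pik3r4 encodes VPS15, the regulatory subunit, and had 37.8, 38.1 and 38.9 CPM with shRela-1, 48.8, 45.6 and 44.2 CPM with shRela-2, against 38.0, 38.9 and 38.3 CPM with shScr. It rose with shRela-2 (0.27 ± 0.042, edgeR adjusted p = 8.9e-04), where its samples stand above all others, and was at -0.01 ± 0.042 with shRela-1. Uvrag, whose protein takes the place of ATG14 in an endosomal form of the complex, also rose with shRela-2 (0.26 ± 0.056, edgeR adjusted p = 0.0050); with shRela-1 it was at 0.11 ± 0.056, not called, but passed with the replicate block (edgeR adjusted p = 0.046). Becn1, the gene of Beclin 1 and the most abundant of the 6 by CPM, had 96.5, 95.9 and 91.9 CPM with shRela-1, 85.7, 87.9 and 89.2 CPM with shRela-2, against 90.1, 84.2 and 86.8 CPM with shScr. Its shRela-1 samples stand above the shScr samples by little (0.12 ± 0.038, edgeR adjusted p = 0.036), the call was lost on leaving out shRela-1 replicates 1 or 2, shRela-2 replicate 2 or shScr replicates 2 or 3 (edgeR adjusted p from 0.055 to 0.14) and under 2 other settings, and shRela-2 overlaps shScr (0.01 ± 0.038). Becn1 shares 1394 exonic bases with Cntd1 on the opposite strand, and this library kit does not mark strand. Pik3c3, the gene of the catalytic subunit VPS34, passed in neither comparison (0.03 ± 0.075 with shRela-1 and 0.07 ± 0.075 with shRela-2).

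Of the lipid suppliers and PI3P binders, Wipi2 had the clearest change. WIPI2 binds PI3P and brings ATG16L1 to the membrane, and Wipi2, on chromosome 5, had 61.6, 60.9 and 58.0 CPM with shRela-1, 103, 101 and 99.9 CPM with shRela-2, against 99.5, 101 and 98.8 CPM with shScr. The shRela-1 samples are the 3 lowest by a wide gap (-0.73 ± 0.034, edgeR adjusted p = 2.7e-07), whereas shRela-2 overlaps shScr (0.02 ± 0.034). Wipi1, its paralog, had 108, 106 and 98.8 CPM with shRela-1, 122, 116 and 108 CPM with shRela-2, against 103, 97.9 and 98.0 CPM with shScr. Its shRela-2 samples stand above all shScr samples. It rose with shRela-2 (0.21 ± 0.051, edgeR adjusted p = 0.0092) and was at 0.07 ± 0.051 with shRela-1. Atg9a encodes the membrane scramblase whose vesicles seed the autophagosome, and had 75.0, 69.5 and 66.9 CPM with shRela-1, 90.7, 86.5 and 82.5 CPM with shRela-2, against 64.9, 60.2 and 62.7 CPM with shScr. Both hairpin groups lie above shScr, shRela-2 (0.47 ± 0.052, edgeR adjusted p = 8.8e-05) more so than shRela-1 (0.17 ± 0.052, edgeR adjusted p = 0.035). The call with shRela-1 was lost on leaving out shRela-1 replicates 1 or 2 or shScr replicates 2 or 3 (edgeR adjusted p from 0.068 to 0.12) and when total counts took the place of TMM (adjusted p = 0.072). Atg9a shares 1832 exonic bases with a gene model on its own strand. Atg2a and Atg2b encode the lipid transfer proteins that bridge membranes. Atg2a had 44.9, 44.8 and 44.2 CPM with shRela-1, 57.1, 54.3 and 54.5 CPM with shRela-2, against 52.0, 51.8 and 54.7 CPM with shScr. It was lower with shRela-1 than in all other samples (-0.24 ± 0.036, edgeR adjusted p = 7.5e-04) and overlapped shScr with shRela-2 (0.07 ± 0.036). Atg2b rose slightly with shRela-2 (0.15 ± 0.031, edgeR adjusted p = 0.0039) and was at -0.01 ± 0.031 with shRela-1, and it shares 383 exonic bases with Gskip on the opposite strand. All 5 of these genes were higher with shRela-2 than with shRela-1, where 20% of all genes tested were called higher.

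The conjugation enzymes split by gene. Atg16l1 rose with both hairpins. ATG16L1 carries the ATG12-ATG5 conjugate to the membrane, and its gene had 53.0, 49.8 and 49.6 CPM with shRela-1, 55.3, 56.0 and 52.2 CPM with shRela-2, against 45.6, 43.7 and 45.3 CPM with shScr. Both hairpin groups lie above shScr, by 0.18 ± 0.042 (edgeR adjusted p = 0.010) with shRela-1 and 0.28 ± 0.042 (edgeR adjusted p = 6.0e-04) with shRela-2. Atg12, which encodes the ubiquitin-like protein joined to ATG5, had 64.9, 61.5 and 66.0 CPM with shRela-1, 47.2, 48.0 and 48.4 CPM with shRela-2, against 51.5, 53.3 and 49.4 CPM with shScr. It rose with shRela-1 (0.32 ± 0.039, edgeR adjusted p = 2.2e-04). With shRela-2 its samples lie just under shScr (-0.10 ± 0.040, not called), and this passed with the replicate block (edgeR adjusted p = 0.047). ATG7 is the activating enzyme of both conjugation routes, and Atg7 had 31.2, 30.5 and 29.9 CPM with shRela-1, 36.9, 39.0 and 35.9 CPM with shRela-2, against 30.9, 30.7 and 30.5 CPM with shScr. Its shRela-2 samples stand above all others (0.28 ± 0.044, edgeR adjusted p = 7.9e-04), and shRela-1 overlaps shScr (-0.01 ± 0.044). Atg3, the gene of the enzyme that passes ATG8 to the lipid, went the other way with shRela-2 (-0.37 ± 0.065, edgeR adjusted p = 0.0017) and was at -0.03 ± 0.064 with shRela-1. Atg5, which encodes the partner of ATG12, and Atg10, which encodes the enzyme that passes ATG12 on, were called in no comparison. The 95% intervals of their log2 changes with shRela-1 were -0.08 to 0.16 for Atg5 and -0.20 to 0.24 for Atg10, and with shRela-2 -0.14 to 0.11 and -0.27 to 0.17.

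All 4 genes of the ATG4 proteases, which trim newly made ATG8 proteins and release them from lipid, rose with shRela-2. Of all genes tested, 15.4% were called higher with that hairpin. Atg4b, the most abundant of them by CPM, had 68.4, 66.9 and 65.4 CPM with shRela-1, 75.9, 72.5 and 71.9 CPM with shRela-2, against 64.4, 61.4 and 60.8 CPM with shScr. The shRela-2 samples stand highest and those of shRela-1 just above shScr. The log2 change was 0.24 ± 0.037 (edgeR adjusted p = 7.7e-04) with shRela-2. With shRela-1 it was 0.10 ± 0.037 and missed the threshold (edgeR adjusted p = 0.063), but passed with the replicate block (adjusted p = 0.018) and on leaving out shScr replicate 1 (edgeR adjusted p = 0.045). With shRela-2 the log2 changes of the other 3 were 0.38 ± 0.077 (edgeR adjusted p = 0.0037) for Atg4a, 0.23 ± 0.064 (edgeR adjusted p = 0.019) for Atg4c and 0.35 ± 0.077 (edgeR adjusted p = 0.0059) for Atg4d. The call of Atg4c was lost on leaving out shRela-2 replicate 1 or shScr replicate 3 (edgeR adjusted p from 0.070 to 0.076). With shRela-1 they were 0.05 ± 0.077, 0.17 ± 0.064 and 0.10 ± 0.077, none of them called, although Atg4c passed with the replicate block (edgeR adjusted p = 0.040). Atg4d shares 1379 exonic bases with Kri1 on the opposite strand.

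In the ATG8 family, whose proteins coat the autophagosome and bind receptors, 4 of 5 genes rose with shRela-2 and Gabarap fell. Of all genes tested, 15.4% were called higher and 15.4% lower with shRela-2. Gabarapl1 had 142, 134 and 139 CPM with shRela-1, 167, 157 and 155 CPM with shRela-2, against 114, 113 and 114 CPM with shScr. Both hairpin groups lie above all shScr samples, and those of shRela-2 are the highest. The log2 change was 0.29 ± 0.039 (edgeR adjusted p = 4.4e-04) with shRela-1 and 0.49 ± 0.039 (edgeR adjusted p = 1.2e-05) with shRela-2. Gabarapl2 had 61.8, 58.4 and 58.0 CPM with shRela-1, 83.0, 79.8 and 76.1 CPM with shRela-2, against 61.8, 61.6 and 59.0 CPM with shScr. It rose with shRela-2 (0.39 ± 0.042, edgeR adjusted p = 7.6e-05), and shRela-1 overlaps shScr (-0.03 ± 0.042). Map1lc3a, an LC3 gene, had 51.5, 50.4 and 45.8 CPM with shRela-1, 74.4, 73.5 and 71.3 CPM with shRela-2, against 67.2, 67.5 and 65.2 CPM with shScr. The groups do not overlap: shRela-1 lies lowest (-0.44 ± 0.045, edgeR adjusted p = 6.8e-05) and shRela-2 highest (0.13 ± 0.045, edgeR adjusted p = 0.044). The call with shRela-2 was lost on leaving out shRela-1 replicate 2, shRela-2 replicates 1, 2 or 3 or shScr replicates 1, 2 or 3 (edgeR adjusted p from 0.057 to 0.14) and without a filter on low counts (edgeR adjusted p = 0.054). Map1lc3b, which encodes the LC3 protein most often used as a marker of autophagosomes, rose with shRela-2 (0.23 ± 0.044, edgeR adjusted p = 0.0028). With shRela-1 its samples also lie above shScr, by 0.11 ± 0.044, which was not called (edgeR adjusted p = 0.10) except with the replicate block (adjusted p = 0.0061). Gabarap, the member with the highest level per length, had 312, 305 and 297 CPM with shRela-1, 248, 247 and 251 CPM with shRela-2, against 282, 266 and 268 CPM with shScr. It was higher with shRela-1 (0.16 ± 0.037, edgeR adjusted p = 0.0099) and lower with shRela-2 (-0.13 ± 0.037, edgeR adjusted p = 0.023) than with shScr. The call with shRela-2 was lost on leaving out shRela-2 replicates 1 or 2 or shScr replicate 1 (edgeR adjusted p from 0.064 to 0.087).

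**Figure D3:**
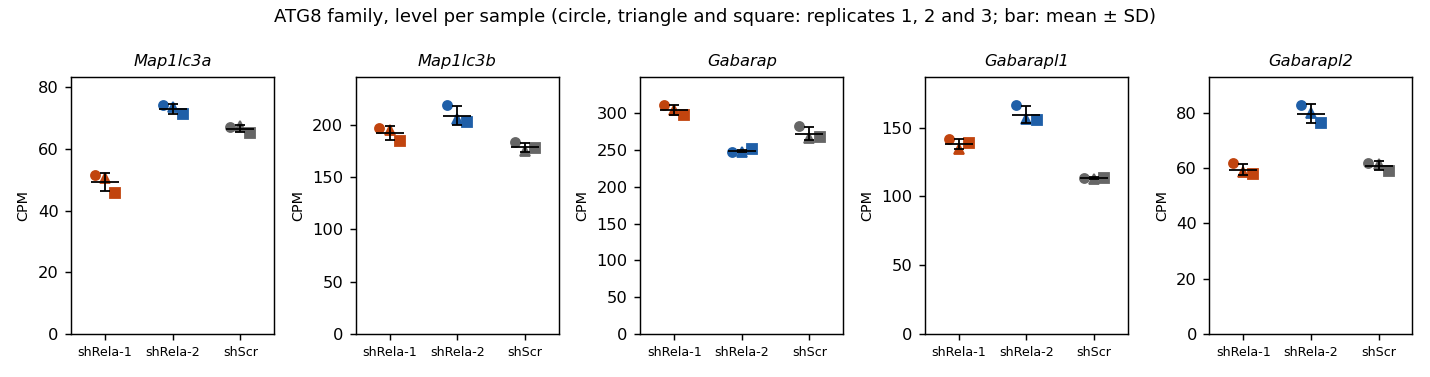
CPM in each sample for the 5 ATG8 genes, with the groups shRela-1, shRela-2 and shScr from left to right and bars at the mean ± SD; each panel has its own axis, which starts at 0. With shRela-2, Map1lc3a, Map1lc3b, Gabarapl1 and Gabarapl2 stand above shScr and Gabarap below it.

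Of the 6 cargo receptor genes, 2 fell with shRela-1, and 2 rose and 1 fell with shRela-2. Of all genes tested, 12.4% were called lower with shRela-1, and 15.4% higher and 15.4% lower with shRela-2. Bnip3l encodes NIX, a receptor in the outer mitochondrial membrane, and had 82.6, 73.1 and 83.4 CPM with shRela-1, 103, 96.8 and 94.3 CPM with shRela-2, against 114, 102 and 99.5 CPM with shScr. The shRela-1 samples are the 3 lowest (-0.40 ± 0.065, edgeR adjusted p = 0.0013), and shRela-2 overlaps shScr (-0.10 ± 0.064). Tax1bp1, a receptor for ubiquitin-tagged cargo and the most abundant of the 6 by CPM, had 148, 151 and 158 CPM with shRela-1, 179, 177 and 175 CPM with shRela-2, against 161, 158 and 163 CPM with shScr. The shRela-2 samples are the 3 highest. It rose with shRela-2 (0.14 ± 0.036, edgeR adjusted p = 0.015) and was at -0.07 ± 0.036 with shRela-1. The call was lost on leaving out shRela-2 replicate 1 or shScr replicate 2 (edgeR adjusted p from 0.051 to 0.059). Nbr1, another ubiquitin-binding receptor, rose with shRela-2 (0.25 ± 0.046, edgeR adjusted p = 0.0021) and was at 0.03 ± 0.046 with shRela-1. Calcoco1, a receptor for endoplasmic reticulum and Golgi membranes, fell with both hairpins, at -0.19 ± 0.041 (edgeR adjusted p = 0.0078) with shRela-1 and -0.14 ± 0.041 (edgeR adjusted p = 0.023) with shRela-2. Its call with shRela-2 was lost on leaving out shRela-2 replicate 3 or shScr replicates 1 or 3 (edgeR adjusted p from 0.057 to 0.079) and with total counts (adjusted p = 0.057). Optn was not called with either (-0.05 ± 0.094 and -0.12 ± 0.095).

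Bnip3, the mitochondrial receptor gene that hypoxia induces through HIF-1, had the widest spread within groups, with a coefficient of variation of 27.0% with shRela-1, 28.6% with shRela-2 and 29.2% with shScr, where the other 36 members were at most 11.4%. It is given in full for that reason, a choice made after its values were seen. It had 202, 129 and 131 CPM with shRela-1, 119, 75.3 and 74.0 CPM with shRela-2, against 142, 90.0 and 86.2 CPM with shScr. In every group replicate 1 is the highest sample, so the groups overlap and the log2 changes of 0.54 ± 0.246 with shRela-1 and -0.24 ± 0.247 with shRela-2 did not pass (edgeR adjusted p = 0.14 and 0.51). Between samples of the same replicate number the ratios were much tighter. The ratio of shRela-1 to shScr was 1.43, 1.43 and 1.52 in replicates 1, 2 and 3, and that of shRela-2 to shScr was 0.841, 0.837 and 0.859. With the replicate number as a block, Bnip3 was called higher with shRela-1 (edgeR adjusted p = 9.6e-12) and lower with shRela-2 (adjusted p = 2.5e-06). Without shScr replicate 1 and with no block, the first of these also passed (edgeR adjusted p = 0.037). Bnip3 shares 504 exonic bases with a gene model on the opposite strand.

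**Figure D4:**
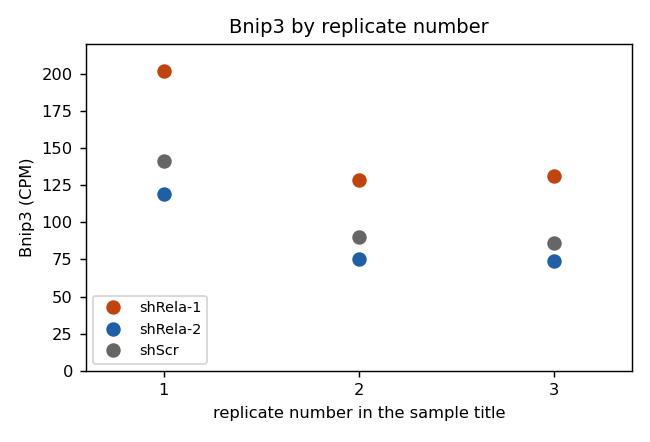
CPM of Bnip3 in the 9 samples by the replicate number of the sample title, with 1 point per sample and colours for shRela-1, shRela-2 and shScr. Replicate 1 is highest in each group, and within every number shRela-1 lies above shScr and shRela-2 below it.

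Set directly against shRela-1, shRela-2 gave a higher level of 21 members and a lower level of 7. The highest was Atg101, at 1.33 ± 0.066 (edgeR adjusted p = 1.6e-07), followed by Wipi2 (0.75 ± 0.034, edgeR adjusted p = 8.7e-08), Ambra1 (0.57 ± 0.051, edgeR adjusted p = 9.2e-06) and Map1lc3a (0.57 ± 0.045, edgeR adjusted p = 3.9e-06). For Atg101 and Wipi2 the shRela-1 samples were the low ones. Gabarapl2 (0.42 ± 0.042, edgeR adjusted p = 2.0e-05) and Ulk1 (0.41 ± 0.045, edgeR adjusted p = 4.1e-05) were higher with shRela-2 than in both other groups. Of the 7 that were lower with shRela-2, the largest differences were in Bnip3 (-0.78 ± 0.247, edgeR adjusted p = 0.028), Atg14 (-0.57 ± 0.066, edgeR adjusted p = 6.3e-05), Atg12 (-0.42 ± 0.040, edgeR adjusted p = 1.3e-05) and Rb1cc1 (-0.37 ± 0.045, edgeR adjusted p = 8.2e-05). Atg3, Gabarap and Becn1 completed them, at -0.34, -0.29 and -0.11. The difference for Bnip3 was lost on leaving out shRela-1 replicate 1 or shRela-2 replicates 2 or 3 (edgeR adjusted p from 0.094 to 0.10). The calls of Becn1, Uvrag, Wipi1, Atg4b and Atg4d were each lost without at least 2 single libraries. For Becn1 this was on leaving out shRela-1 replicates 1 or 2, shRela-2 replicates 1 or 2 or shScr replicate 3 (edgeR adjusted p from 0.053 to 0.11), for Uvrag on leaving out shRela-1 replicates 1 or 2, shRela-2 replicates 1, 2 or 3 or shScr replicates 1, 2 or 3 (edgeR adjusted p from 0.055 to 0.16) and for Wipi1 on leaving out shRela-1 replicates 2 or 3, shRela-2 replicates 1 or 2 or shScr replicates 2 or 3 (edgeR adjusted p from 0.060 to 0.17). For Atg4b it was on leaving out shRela-1 replicate 3 or shRela-2 replicate 1 (edgeR adjusted p from 0.061 to 0.063) and for Atg4d on leaving out shRela-1 replicates 2 or 3 or shRela-2 replicates 1 or 3 (edgeR adjusted p from 0.063 to 0.082). Other settings also ended the calls of Becn1 (1 setting, adjusted p = 0.19), Uvrag (3, adjusted p from 0.052 to 0.071) and Wipi1 (1, adjusted p = 0.075). Map1lc3b (0.12 ± 0.044, edgeR adjusted p = 0.051) and Atg16l1 (0.10 ± 0.041, adjusted p = 0.077) just missed the threshold and passed with the replicate block (adjusted p = 0.0018 and 0.034), among other settings. The 5 members called in no comparison were Atg5, Atg10, Atg13, Optn and Pik3c3.

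**Figure D5:**
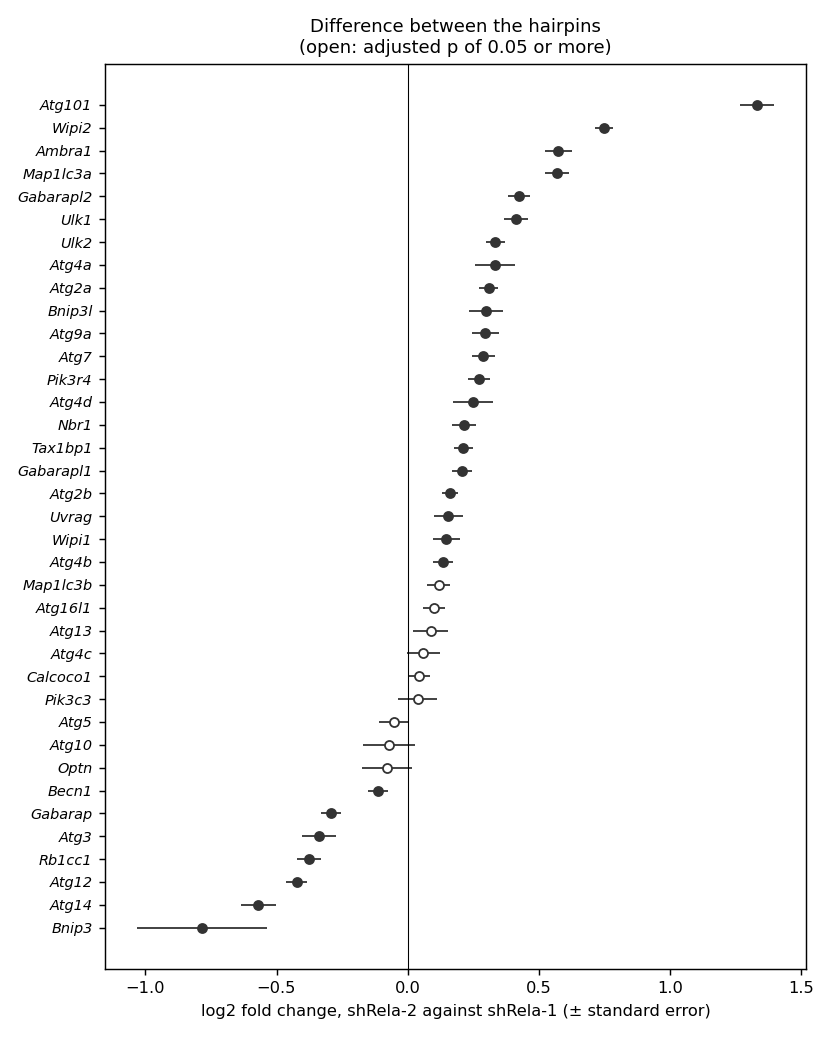
Log2 fold change of shRela-2 against shRela-1 for the 37 members, ordered by value, with standard errors; filled points passed an adjusted p under 0.05. Atg101 stands apart at 1.33 and Bnip3, with the widest error, is lowest at -0.78.

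Averaged over both hairpins, 24 members were called against shScr, of which 17 were higher and 7 lower, with a median log2 change of 0.11, where 22.8% of all genes were called (10.7% higher and 12.2% lower). This count rests on single control libraries: without shScr replicate 1, 2 or 3 it was 13, 13 and 15. The 10 members called under every alternative were Atg101, Atg14, Wipi2, Calcoco1 and Bnip3l, which were lower, and Atg9a, Atg16l1, Atg4b, Gabarapl1 and Gabarapl2, which were higher. In 8 of these 10, the exceptions being Calcoco1 and Atg16l1, the difference between the hairpins was itself called, so the mean joins unequal effects. Against shScr, Wipi2 and Bnip3l were called with shRela-1 alone, and Atg14, Atg4b and Gabarapl2 with shRela-2 alone. Wipi2 with shRela-2 and Gabarapl2 with shRela-1 overlapped shScr, and their small changes had the sign opposite to the mean. The called difference of Atg4b was lost on leaving out shRela-1 replicate 3 or shRela-2 replicate 1 (edgeR adjusted p from 0.061 to 0.063). For Ambra1 and Atg2a the mean was not called (0.12 ± 0.045 and -0.09 ± 0.031) but passed with the replicate block (edgeR adjusted p = 0.014 and 0.040), Atg2a also with a stricter filter (adjusted p = 0.042), and likewise for Bnip3 (0.15 ± 0.214, adjusted p = 1.7e-04 with the block).

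Genes that act upstream and downstream of the machinery moved in both directions. Of all genes tested, 12.3% were called higher and 12.4% lower with shRela-1, and 15.4% higher and 15.4% lower with shRela-2. In the order given below, the 5 lists had 20%, 33.3%, 45.5%, 61.5% and 42.9% called with shRela-1. With shRela-2 they had 20%, 50%, 27.3%, 46.2% and 50%, so lists lay on both sides of the share of all genes. Of 5 MiT/TFE and FOXO genes, transcription factors known to induce autophagy and lysosome genes, none rose and Foxo3 was the 1 that fell with shRela-1 (-0.33 ± 0.043, edgeR adjusted p = 2.8e-04), and with shRela-2 Tfe3 was the 1 that fell (-0.15 ± 0.052, edgeR adjusted p = 0.049), a call that was lost without any 1 of shRela-1 replicate 2, shRela-2 replicate 1 or 3, or shScr replicate 1, 2 or 3 and under 4 other settings (adjusted p from 0.053 to 0.15). Of 18 genes of mTORC1 and AMPK, the kinase systems that restrain and promote initiation, 3 rose and 3 fell with shRela-1, and 4 rose and 5 fell with shRela-2, among them Rragc (-0.48 ± 0.052, edgeR adjusted p = 8.0e-05), a GTPase that recruits mTORC1 to lysosomes, and Rptor (-0.41 ± 0.045, edgeR adjusted p = 8.2e-05), its substrate-binding subunit, which fell. Deptor, an inhibitor of mTOR, rose with shRela-2 (0.54 ± 0.123, edgeR adjusted p = 0.0073), as did Rragd, a partner GTPase related to Rragc (0.31 ± 0.100, edgeR adjusted p = 0.038). The call of Rragd with shRela-2 was lost on leaving out shRela-1 replicate 2 or 3, shRela-2 replicate 1, 2 or 3 or shScr replicate 2 or 3, and under 2 other settings (adjusted p from 0.052 to 0.14). With shRela-1 Rragd was called lower, at a mean of 3.98 CPM against 5.28 CPM with shScr. That call was lost on leaving out shRela-1 replicate 3 or shScr replicate 1 (edgeR adjusted p = 0.054 in each). Of 11 measured further core and accessory genes, 3 rose and 2 fell with shRela-1, and 1 rose and 2 fell with shRela-2. Wdr45b, a PI3P binder related to WIPI2, was higher with shRela-1 (0.18 ± 0.033, edgeR adjusted p = 0.0031) and lower with shRela-2 (-0.51 ± 0.033, edgeR adjusted p = 4.4e-06). Of 13 genes of fusion with the lysosome, 5 rose and 3 fell with shRela-1, and 3 rose and 3 fell with shRela-2. Ykt6, a SNARE of the autophagosome, fell with both, at -1.28 ± 0.038 (edgeR adjusted p = 2.5e-08) with shRela-1 and -0.41 ± 0.037 (edgeR adjusted p = 2.9e-05) with shRela-2. Of 14 further receptor genes, 5 rose and 1 fell with shRela-1, and 5 rose and 2 fell with shRela-2. Tollip, an adaptor for ubiquitin-tagged cargo, was the 1 that fell with shRela-1 (-0.78 ± 0.038, edgeR adjusted p = 3.3e-07) and was higher with shRela-2 (0.17 ± 0.037, edgeR adjusted p = 0.0058), and Fundc1, a mitochondrial receptor, fell with shRela-2 (-0.76 ± 0.063, edgeR adjusted p = 1.4e-05).

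Promoters were searched because Rela encodes a DNA-binding factor and because many autophagy genes are known targets of TFEB, which binds elements built on CACGTG. RefSeq promoter windows of GRCm38.p6, from 250 bases before to 50 after the start site, matched 30 of the 37 members. A gene was counted if any window under its symbol held the motif. The letters CACGTG, which read alike on both strands, were in 5 of these 30 (16.7%), namely Atg14, Atg3, Atg5, Atg7 and Bnip3, against 11.2% of 11360 tested genes and 7.15% of all 32851 promoters. Atg14 and Atg3 fell with shRela-2, Atg7 rose with it, and Atg5 and Bnip3 were not called, Bnip3 except with the replicate block. The stretches around the motif, in capitals, are shown for Atg14, Atg3 and Atg7, at chr14:47568418-47568447 (minus strand, Atg14), chr16:45158723-45158752 (plus, Atg3, the first of its 2 matches) and chr6:114670952-114670981 (plus, Atg7). Those of Atg14 and Atg7 lie inside the annotated genes, which span 47540893 to 47570649 and 114643097 to 114860614. They thus belong to start sites within the gene, and which start sites these cells use was not tested.
Atg14 promoter: aaaacaaaatccCACGTGactggccctgag
Atg3 promoter: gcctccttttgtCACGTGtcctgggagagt
Atg7 promoter: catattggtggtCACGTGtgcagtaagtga
The NF-kB consensus, searched on both strands, was in 1 of 30 member promoters (3.33%), against 6.32% of tested genes and 4.51% of all promoters. The member is Tax1bp1, at chr6:52714187-52714214, inside the annotated gene, which starts at 52713729. The stretch is printed as read on the plus strand, and the letters in capitals fit the consensus on the opposite strand.
Tax1bp1 promoter: ggaggaagaggcGGGGACTCCCtgtgtc
A match is a description of these letters, and no match says only that they are not in this window.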

How the data were processed

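Per the labels' protocols, RNA was extracted on columns and the library kit was TruSeq RNA v2, which keeps no strand information. The values deposited by the authors are raw counts by gene symbol, with a column for each of the 9 samples. Tools named in the submitters' processing notes are featureCounts 1.4.6 and Subread, Bowtie2 2.2.6 and TopHat2 2.0.14, with the build mm10 and no settings. In the deposited counts the value 2 occurred 7984 times and the value 1 2764 times; no source used here says whether mates of a pair were counted separately, and precision figures cover neither that nor duplicate reads.

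Samples were grouped by title. Genes kept by filterByExpr (edgeR 4.0.16, R 4.3.3, minimum count 10; 15369 genes) were scaled by TMM and fitted in 1 quasi-likelihood model of all 9 samples; glmQLFTest, two-sided, gave each comparison, with Benjamini-Hochberg adjustment over all 15369 genes and a threshold of 0.05. Fold changes are on the log2 scale with the standard error of the fit. The script was tested on simulated data. CPM per kilobase uses exon lengths of GENCODE M21 on GRCm38 (mm10). The members and lists were chosen with earlier results of these data known. Full values are given for members called in a comparison of 2 groups that do not overlap there, at most 20 by smallest p, and for the member of each role with the highest CPM; genes of other lists by smallest p. Older symbols stood for Rubcn, Retreg1 and Adgre1, and Gabarapl3 was not matched. Exons of 12 members overlap a gene on the opposite strand, 5 of them by at least 300 bases.

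Titles share replicate numbers. Deviations from group means correlated in all 9 pairs of samples with the same number (r from 0.189 to 0.415), and from -0.306 to 0.0459 in the other 18 pairs. The numbers were therefore taken to pair the samples. The main fit, which gave the calls unless stated, does not use this pairing. The fit with the replicate number as a block is an alternative that does. The other alternatives were DESeq2 1.42.0 (its size factors and its test), upper-quartile scaling, total counts, no filter, a filter of 1 CPM in 3 samples, limma voom (limma 3.58.1), only the groups compared, and leaving out each sample.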

Additional observations from a re-analysis of the deposited data

Results flagged for a closer look

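The effect of a Rela hairpin differed between shRela-2 and shRela-1, by the direct test of the difference (edgeR, adjusted p under 0.05 over all genes tested), in 28 of 37 members, where 39.9% of all genes differed. Because both hairpins are set against the same controls, the difference in effect is the log2 difference of shRela-2 minus shRela-1. It was largest and positive at 1.33 (Atg101), 0.75 (Wipi2), 0.57 (Ambra1), 0.57 (Map1lc3a), 0.42 (Gabarapl2), 0.41 (Ulk1) and 0.33 (Ulk2). Smaller positive differences were 0.33 (Atg4a), 0.31 (Atg2a), 0.30 (Bnip3l), 0.30 (Atg9a), 0.29 (Atg7), 0.27 (Pik3r4) and 0.25 (Atg4d). The smallest that passed were 0.22 (Nbr1), 0.21 (Tax1bp1), 0.21 (Gabarapl1), 0.16 (Atg2b), 0.16 (Uvrag), 0.15 (Wipi1) and 0.13 (Atg4b). The 7 members that were lower with shRela-2 than with shRela-1 differed by -0.78 (Bnip3), -0.57 (Atg14), -0.42 (Atg12), -0.37 (Rb1cc1), -0.34 (Atg3), -0.29 (Gabarap) and -0.11 (Becn1). In Ambra1, Map1lc3a, Ulk2 and Gabarap each hairpin was called against shScr in a direction opposite to that of the other, as were 5.08% of all genes. In each of them 1 of the calls was not stable. Of 18 alternatives, Ulk2 with shRela-1 was called under 4 and Map1lc3a with shRela-2 under 10. Ambra1 with shRela-1 was called under 13 and Gabarap with shRela-2 under 15. With the replicate block, Bnip3 and Atg12 were also called in opposite directions.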

How the results depend on the processing

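Over all alternatives, 11 of the 15 members called with shRela-1, 19 of 25 with shRela-2, 10 of 24 in the mean and 22 of 28 between the hairpins stayed called under each, and every called member kept its direction. Of 2627 values of members under an alternative, 2422 kept direction and side of the threshold, 151 lost the call, 23 gained one and 31 changed sign, none of these last called in either fit. With the replicate block, which uses the pairing of samples by number, the counts of members called were 20 with shRela-1, 27 with shRela-2, 27 in the mean and 30 between the hairpins, where 39.3%, 44.4%, 37.5% and 51.9% of all genes were called; beyond the members named above it changed no call. With total counts in place of TMM the median log2 change was -0.0028 with shRela-1 and 0.20 between the hairpins. Without 1 library at a time the median with shRela-1 ran from -0.0047 to 0.038, and the members called in the mean from 13 to 21. Signs turned with total counts for Atg13 (-0.011) and Atg10 (-0.0028) with shRela-1 and for Atg5 (0.0028) with shRela-2, with upper-quartile scaling for Pik3r4 with shRela-1 (0.00013) and with limma voom for Atg10 in the mean (0.0058). Without 1 library at a time the sign turned in 17 uncalled values, whose ranges with shRela-1 were -0.019 to 0.084 for Atg13, -0.015 to 0.0040 for Pik3r4, -0.073 to 0.023 for Atg3, -0.023 to 0.0097 for Atg7, -0.030 to 0.12 for Atg10, -0.029 to 0.10 for Atg4a and -0.091 to 0.022 for Optn. With shRela-2 they were -0.054 to 0.014 for Rb1cc1, -0.017 to 0.035 for Becn1, -0.013 to 0.12 for Pik3c3, -0.071 to 0.030 for Atg5, -0.11 to 0.046 for Atg10 and -0.50 to 0.021 for Bnip3. In the mean they were -0.016 to 0.034 for Atg5, -0.068 to 0.083 for Atg10 and -0.0027 to 0.043 for Gabarap, and between the hairpins -0.048 to 0.087 for Pik3c3. The fit of only the groups compared gives no value for the mean, which uses all 9 samples. Standard errors of the members' log2 changes ran from 0.027 to 0.25, which sets how small a change could pass.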

Other observations

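Some genes outside the 37 that act with them are given here by sample; they were chosen after their values were seen. Ykt6, a SNARE that takes part in fusion with the lysosome, had 79.7, 76.2 and 77.0 CPM with shRela-1, 142, 141 and 146 CPM with shRela-2, against 195, 188 and 184 CPM with shScr. The groups do not overlap, and the hairpins differed by 0.88 ± 0.038 (edgeR adjusted p = 6.1e-08) for shRela-2 against shRela-1. Tollip had 52.7, 53.0 and 50.4 CPM with shRela-1, 102, 98.2 and 102 CPM with shRela-2, against 87.3, 93.1 and 88.3 CPM with shScr, so that shRela-1 lies under and shRela-2 over the controls. Fundc1 had 22.7, 24.3 and 24.4 CPM with shRela-1, 12.3, 12.2 and 13.6 CPM with shRela-2, against 20.9, 21.5 and 22.4 CPM with shScr, with the shRela-2 samples lowest. Vps33a, a subunit of the HOPS tethering complex, was higher with shRela-1 (0.37 ± 0.041, edgeR adjusted p = 1.1e-04) and lower with shRela-2 (-0.23 ± 0.042, edgeR adjusted p = 0.0021). Tmem41b, a scramblase gene needed for autophagosome formation, was lower with shRela-1 (-0.36 ± 0.053, edgeR adjusted p = 7.0e-04) and at 0.12 ± 0.052 with shRela-2, not called. These calls were kept under all 18 alternatives.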
